A study of Drosophila melanogaster with 3 samples.

Results

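The cytosolic ribosomal protein genes of Drosophila melanogaster were examined for binding of Nf-YB in whole embryos. They were chosen by name, as the protein-coding genes whose symbol starts with RpL or RpS, plus sta, which encodes the small subunit protein SA. This gave 93 genes of 13945 protein-coding genes on the 6 chromosome arms. By symbol, 54 were counted with the large and 39 with the small ribosomal subunit. Symbols ending in -like were counted in the same way, among them RpL24-like and RpLP0-like, whose yeast counterparts are assembly factors. Binding had been profiled by chromatin immunoprecipitation and sequencing (ChIP-seq) in mixed-sex embryos of 0 to 24 h from the transgenic line Nf-YB-GFP, which carries Nf-YB with green fluorescent protein fused to its C-terminal end. The description field of the labels names an anti-GFP antibody, and the antibody field names Nf-YB. All 3 biological replicates form 1 group with this genotype and age, and no other condition was analysed. The labels do not say which promoter drives the fusion or whether the untagged protein is still made.

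Ribosomal proteins are made in near-equal numbers and assembled with ribosomal RNA into the small and large subunits. Loss of 1 copy of many of these genes gives the dominant Minute phenotype of slow development and thin bristles. Most fly ribosomal protein promoters start transcription in a run of pyrimidines, the TCT initiator, in place of the usual initiator, and lack a TATA box; the factors TRF2, M1BP and DREF are known to act at them. Nf-YB belongs to NF-Y, a trimer in which the B and C subunits pair through histone folds and the A subunit reads the CCAAT box, usually upstream of the start site.

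A gene was called bound when the summit of a peak lay within 500 bp of one of its annotated transcription start sites (TSSs). The authors' optimal list holds the 6221 peaks they judged reproducible by the irreproducible discovery rate, and these are also the 6221 peaks of highest signal in the list they called on the pooled replicates. Each replicate has a list of 30000 peaks, of which the 6221 of highest signal were used. The lists give no read counts, so depth is unknown. Signal is the authors' own peak score; it is given here as a rank within its list (1 is the highest) or as a multiple of the median of the optimal list. Since embryos were used whole, binding in more cells and denser binding per cell cannot be told apart. The labels call the replicates biological and give each its own sample record, but do not describe how they were collected.

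Some promoters show what the peaks lay on. Each sequence below runs 5′ to 3′ on the gene's strand from 100 bases before the TSS to 20 bases into the transcript (dm6, read from RefSeq's copy), so that the TSS is base 101. Capitals mark CCAAT or its reverse complement ATTGG, the element TATCGATA, and the CTTT of a TCT initiator at this TSS. The first 5 genes are among the 12 with the highest signal, and the last 4 show a gene with CCAAT at its summit and a TCT initiator, a bound copy of RpS28, and the bound and unbound copies of RpS19. RpL18 was chosen for this display after its values were seen.
RpS27 (chr3R:25247495-25247614, minus strand): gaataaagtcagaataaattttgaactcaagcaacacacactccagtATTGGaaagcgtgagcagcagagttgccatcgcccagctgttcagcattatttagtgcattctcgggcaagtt
RpL14 (chr3L:8600906-8601025, plus strand): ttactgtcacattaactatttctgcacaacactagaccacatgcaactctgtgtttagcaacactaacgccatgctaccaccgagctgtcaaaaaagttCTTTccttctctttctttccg
RpL34a (chr3R:26059248-26059367, minus strand): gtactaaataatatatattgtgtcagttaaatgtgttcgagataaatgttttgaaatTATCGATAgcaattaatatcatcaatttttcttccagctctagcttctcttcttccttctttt
RpL13A (chr3R:5624374-5624493, plus strand): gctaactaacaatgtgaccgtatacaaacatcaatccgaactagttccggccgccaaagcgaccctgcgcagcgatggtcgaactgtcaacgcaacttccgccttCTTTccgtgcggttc
RpL23A (chr3L:1668635-1668754, minus strand): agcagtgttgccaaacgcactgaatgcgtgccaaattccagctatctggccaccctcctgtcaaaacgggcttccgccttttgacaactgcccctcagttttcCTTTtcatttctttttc
RpL18 (chr3L:7241332-7241451, minus strand): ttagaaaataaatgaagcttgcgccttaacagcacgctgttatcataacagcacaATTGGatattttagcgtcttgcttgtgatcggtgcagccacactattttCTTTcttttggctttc
RpS28b (chrX:9554523-9554642, plus strand): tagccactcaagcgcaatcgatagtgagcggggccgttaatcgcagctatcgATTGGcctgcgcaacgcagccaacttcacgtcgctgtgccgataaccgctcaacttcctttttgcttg
RpS19a (chrX:16637794-16637913, plus strand): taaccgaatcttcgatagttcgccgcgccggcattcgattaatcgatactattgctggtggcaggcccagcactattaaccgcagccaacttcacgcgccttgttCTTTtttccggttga
RpS19b (chr3R:23933511-23933630, minus strand): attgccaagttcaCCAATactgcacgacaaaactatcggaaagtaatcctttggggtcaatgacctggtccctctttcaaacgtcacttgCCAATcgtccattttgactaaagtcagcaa

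In these windows the summit of RpS27 was base 112, that of RpL14 base 97, that of RpL13A base 44 and that of RpL23A base 38. The summit of RpL18 was base 59, that of RpS28b base 52 and that of RpS19a base 74. RpL34a had its summit at position −114 from the TSS, outside the stretch shown. RpS27 had a TCT initiator only at another of its TSSs, and RpS19b had no summit in the optimal list although it carries CCAAT in 2 places.

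Most ribosomal protein genes carried a promoter peak. In the optimal list 72 of the 93 were bound (77.4%), beside 21.6% of all protein-coding genes. In replicates 1, 2 and 3 the number bound was 67, 70 and 72 of 93, beside 21.1%, 19% and 22.6% of all protein-coding genes. The mean was 69.7 ± 2.52 genes (SD, n = 3), which is 74.9% ± 2.71 of the ribosomal protein genes and 20.6% ± 1.82 of the other protein-coding genes. The difference was between 51.2 and 56.7 percentage points in each of the 3 replicates, with a mean of 54.4 ± 2.80 (SD, n = 3). It was positive in 3 of 3 replicates and far above the spread between them, but an exact two-sided sign-flip permutation test over 3 replicates cannot give a p below 0.25, which is the value it gave.

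Single genes were also called alike in the replicates. All 3 replicates bound 61 of the genes, none bound 14, and 60 were bound in the optimal list and in every replicate. These counts were not made for other protein-coding genes, so they do not show that the agreement is particular to this group. The 12 bound in the optimal list but not in every replicate included RpL10Ab, RpL24-like, RpL35, RpL36A, RpS2, RpS3, RpS6, RpS14a, RpS15, RpS23 and RpS26. RpL9 was bound in every replicate and not in the optimal list. When an optimal summit had to lie within 100 bp of one among the 6221 peaks of each of the 3 replicates, 52 ribosomal protein genes stayed bound (55.9%), beside 12.3% of all protein-coding genes. With all pooled peaks, 81 had a promoter peak (87.1%), beside 48.1% of all protein-coding genes. Bound genes lay on every arm: 12 of 19 on 2L, 16 of 21 on 2R, 12 of 14 on 3L, 17 of 23 on 3R, 14 of 15 on X and RpS3A, the gene on chromosome 4. Over all protein-coding genes the share was 12.5% on chromosome 4 and between 19.7% (X) and 23.2% (3L) on the other arms.

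Among other genes of the translation machinery, 3 lists gave lower shares. Of the genes of mitochondrial ribosomal proteins, 24 of 73 were bound (32.9%), led by mRpL30 at rank 321 and mRpS10 at rank 388. Translation factors were bound in 19 of 54 cases (35.2%), led by eIF4EHP at rank 481 and eIF6 at rank 868. Factors of ribosome biogenesis were bound in 13 of 33 cases (39.4%), led by Ns2, a nucleolar GTPase, at rank 775 and NHP2, a protein of the H/ACA RNA particle, at rank 2156. In the replicates these 3 lists averaged 30.6% ± 6.18, 30.9% ± 2.14 and 27.3% ± 13.9 (SD, n = 3). A short list of regulators and partners of ribosomal protein genes was bound in 10 of 13 cases (76.9%), among them Xrp1, a stress factor of Minute cells, at rank 764 and M1BP, which binds ribosomal protein promoters, at rank 939.

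**Figure D1:**
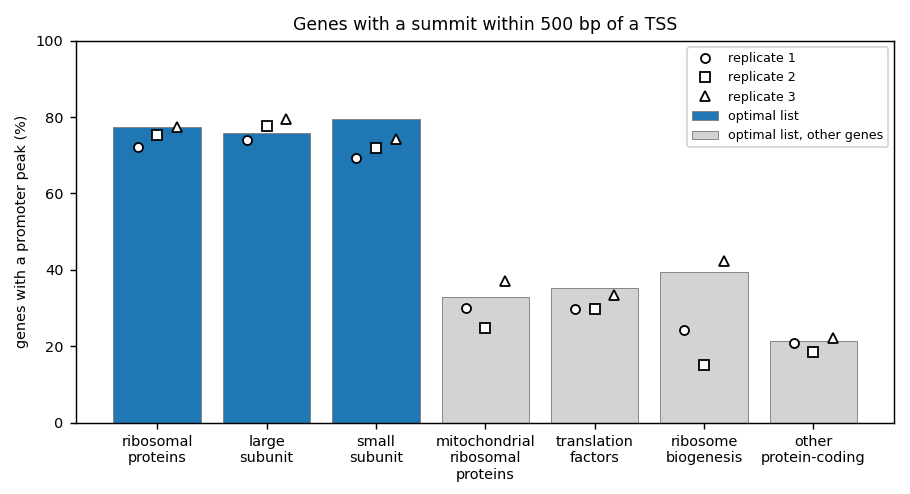
Share of genes with a promoter peak (percent), for the ribosomal protein genes, their large and small subunits, 3 other lists and all other protein-coding genes. Bars give the optimal list and open symbols the 3 replicates. The ribosomal protein genes sit between 72% and 77.4% in every list, and the other protein-coding genes below 22.6%.

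The peaks were of middle rank within the list. No ribosomal protein gene was among the 971 peaks of highest signal, where 462 other protein-coding genes had their best promoter peak. RpL7, of the large subunit, was the highest, at rank 972 with 2.72 times the median signal, and RpL10Ab the lowest, at rank 6218. The median rank was 2658.5 over 72 bound ribosomal protein genes and 2949 over 2945 other bound genes. Most of them lay between ranks 1001 and 3000: 24 (33.3%) were in the first 1000 ranks of that span and 20 (27.8%) in the next, beside 17.8% and 16.9% of other bound genes. Only 1 ribosomal protein gene (1.39%) lay in the first 1000 ranks, beside 16.3% of other bound genes. The median rank of the ribosomal protein genes bound was 2527, 3098 and 2496 in replicates 1, 2 and 3 (mean 2707 ± 339, SD, n = 3), and that of the other genes 3205.5, 3154 and 2781 (mean 3047 ± 232). In each replicate the median of the ribosomal protein genes ranked higher, though in replicates 2 and 3 by less than the SD of their medians (339).

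Large subunit genes filled most of the top of the order. The 12 genes of highest signal included RpL7, RpS27, RpL14, RpL34b, RpL34a, RpL19, RpL13A, RpL41, RpL30, RpLP0 and RpL23A. All 12 but RpS27 were of the large subunit, beside 41 of all 72 bound genes. All 12 had a matching summit among the 6221 peaks of 3 of 3 replicates, beside 52 of the 72. Peaks of high rank are the least exposed to the limit of 6221, and other genes of like rank were not counted. RpL7 (FBgn0005593, 2L from 10201004 to 10202321) ranked 948, 1310 and 1002 in replicates 1, 2 and 3, and its optimal peak, from 10200906 to 10201176, had its summit in the 5' UTR, 46 bp downstream of the nearest TSS. RpS27 ranked 1044, 1225 and 987 in the replicates and 1020 in the optimal list, with its summit in the 5' UTR. RpL14 ranked 1072, 1158 and 1045 in the replicates and 1023 in the optimal list. The replicate ranks of these 3 genes overlapped, so their order is not resolved. RpLP0, of the stalk base that binds translation factors, and RpL23A, near the exit of the nascent chain, ranked 1270 and 1317.

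The 5 lowest were RpS23, RpL24-like, RpL35, RpS6 and RpL10Ab. RpS23, a decoding-centre protein, ranked 3941, 5951 and 8399 in replicates 1, 2 and 3 and 5543 in the optimal list. RpL24-like ranked 6152 and 5336 in replicates 1 and 2 and had no promoter peak in replicate 3. RpL35 ranked 9536, 9570 and 4415, so that replicate 3 alone placed it within the peaks used. RpS6, the phosphorylated target of S6 kinase, ranked 6241, 5470 and 6700 in replicates 1, 2 and 3 and 6040 in the optimal list. Its optimal summit lay 63 bp downstream of the TSS, and the highest promoter summits of the replicates lay at 65, −222 and 63 bp. RpL10Ab ranked 6423, 5398 and 6424. Of the 72 bound genes, the optimal summit had a summit within 100 bp among the 6221 peaks of 3 replicates for 52, of 2 for 14, of 1 for 5 and of none for 1. The 52 are 72.2%, beside 1642 of the 2945 other bound genes (55.8%) with a match in 3 replicates. Peaks near the end of the list can drop out here by the limit of 6221 alone. In the full replicate lists the optimal summit was matched in 3 replicates for 61, in 2 for 10 and in 1 for RpL27A, singled out after its value was seen. RpL27A was still bound in replicates 1, 2 and 3, at ranks 2791, 2089 and 2198. Its highest promoter summits there lay at −3, −159 and −115 bp from the nearest TSS, beside −8 bp in the optimal list. Over the 71 bound genes with a rank in all replicates, the ranks correlated across genes with Spearman's rho of 0.871 between replicates 1 and 2, 0.881 between 1 and 3 and 0.895 between 2 and 3. These genes share their libraries and are not independent, so this is a description.

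**Figure D2:**
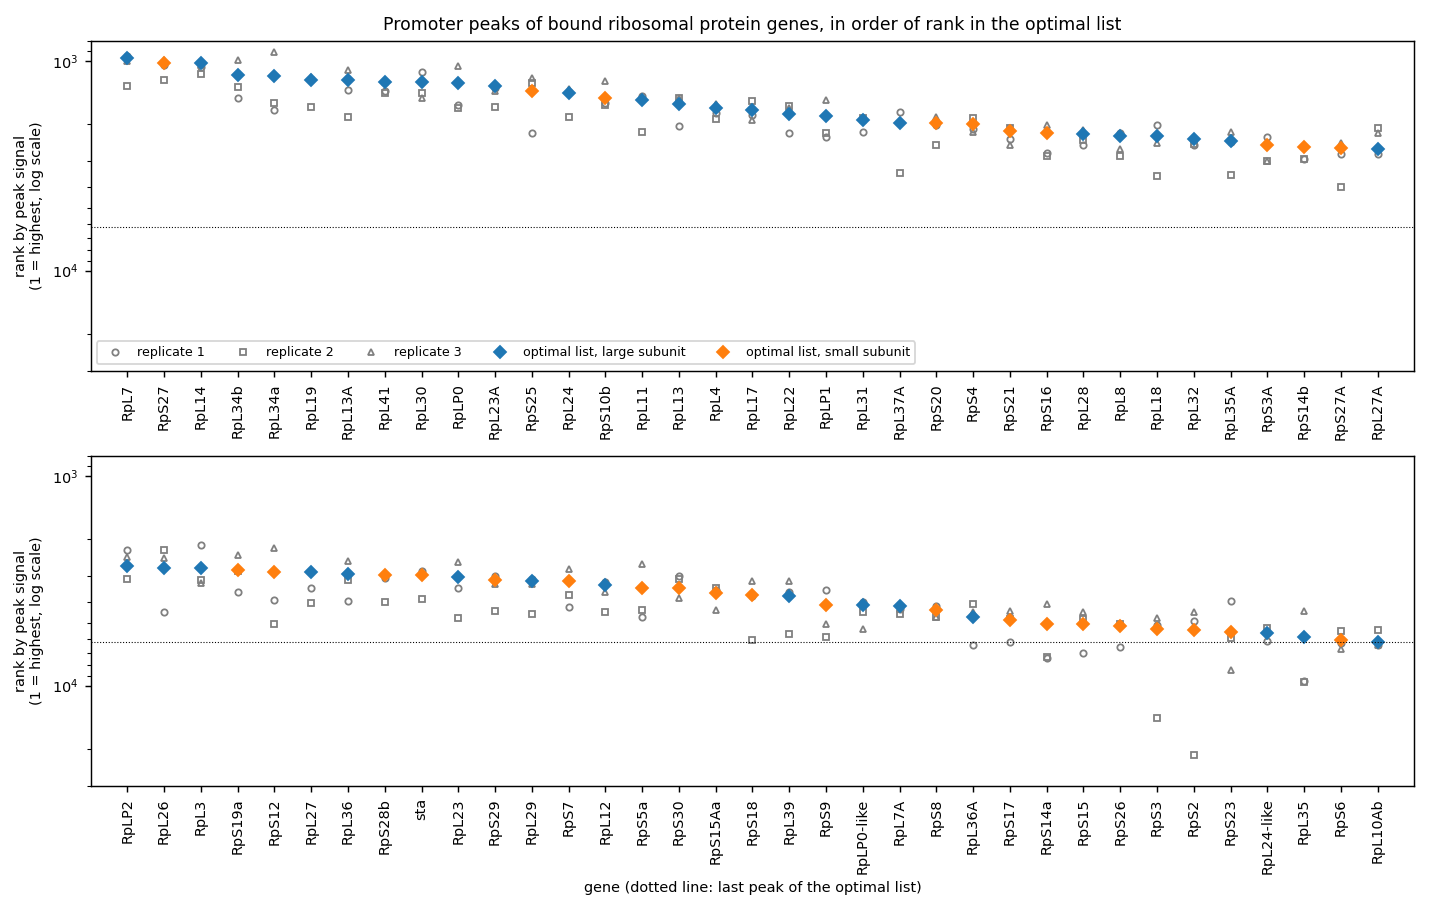
Rank by signal (log scale, highest at the top) of the promoter peak of 70 bound ribosomal protein genes, in order of the optimal list. Filled diamonds give the optimal list by subunit and open grey symbols the 3 replicates; RpL7 leads at 972, and RpS3 and RpS2, near the end, fall to 14209 and 21437 in replicate 2.

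The summits lay close to the start of transcription. The median offset of the 72 summits from the nearest TSS of the gene, negative upstream, was −17.5 bp (quartiles −57.25 and 7.25), while the 2945 other bound genes had a median offset of −137 (quartiles −222 and −56). Within 50 bp of a TSS lay 48 of the 72 summits (66.7%), beside 14.1% for other bound genes, and within 100 bp lay 65 (90.3%), beside 31.4%. The replicates gave median offsets of −8, −19.5 and −21.5 for ribosomal protein genes (mean −16.3 ± 7.29, SD, n = 3) and −118, −136 and −147 for other genes (mean −134 ± 14.6). The groups did not overlap. The 2482 other genes whose peak ranked between the highest and the lowest ribosomal protein gene had a median offset of −131, and 15.9% of them lay within 50 bp. Of the ribosomal protein summits, 47 (65.3%) lay upstream of the TSS, beside 84.9% for other genes. By annotation 30 of the 72 summits were in a 5' UTR of the gene itself, 5 in one of its introns, and 37 outside it. These places were not counted for other genes.

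The other lists differed among themselves in this respect. Mitochondrial ribosomal protein genes had a median offset of −136.5 and 2 of 24 summits within 50 bp (8.33%). Translation factors had a median of −44 and 8 of 19 within 50 bp (42.1%). Genes of ribosome biogenesis had a median of −66 and 3 of 13 within 50 bp (23.1%). In the replicates 70.3% ± 1.83 of ribosomal protein summits lay within 50 bp, beside 40.7% ± 20.3 for translation factors and 15.1% ± 2.98 for other genes (SD, n = 3).

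**Figure D3:**
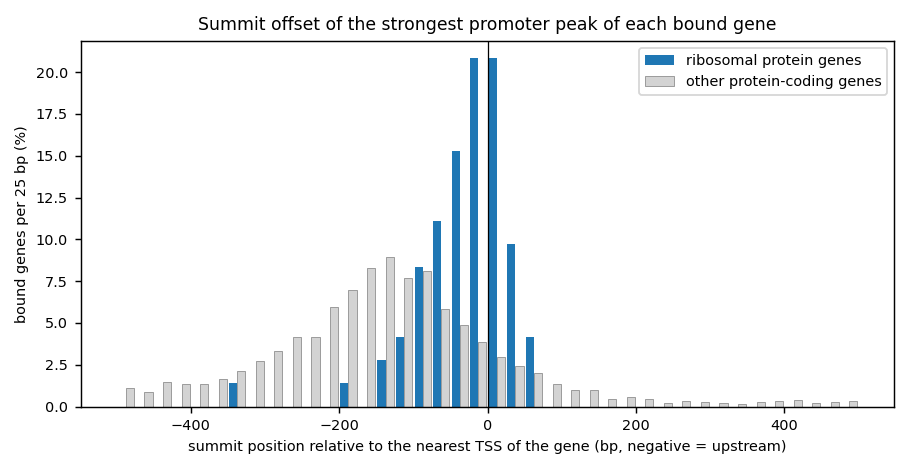
Distance of the summit from the nearest TSS of the gene (bp, negative is upstream) for bound ribosomal protein genes and other bound protein-coding genes, as a percentage of bound genes per 25 bp. The ribosomal protein genes gather at the TSS, with a median of −17.5 bp, and the other genes upstream of it, with a median of −137 bp.

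Several promoters served a second gene. For 33 of the 72 bound genes (45.8%) the summit also lay within 500 bp of a TSS of another protein-coding gene, as for 50.2% of other bound genes. Among the 12 strongest this held for 10, a share that was not counted for the strongest of the other bound genes. Neighbours of these 10 included Ripalpha (RpL7), Nup37 (RpS27), Nelf-E (RpL14), CG8132 (RpL34b), Trmt61 (RpL34a), CG3776 (RpL19), Dph4 and Spec2 (RpL13A), NaCP60E (RpL41) and CG7130 (RpLP0). The median offset was −48 for the 33 shared summits and −7 for the 39 not shared; for other genes both were −137. The nearest TSS of any gene belonged to the ribosomal protein gene in 65 of 72 cases, a count not made for other bound genes. In the other 7 it belonged to CG8132 (beside RpL34b), CG3776 (RpL19), Dref (RpL13), 14-3-3zeta (RpLP0-like), CG5276 (RpL24-like), CR33222 (RpS6) and the pair CG11597 and CG5946 (RpL10Ab). Dref encodes DREF, itself a factor known to bind ribosomal protein promoters.

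Peaks were narrower than usual for the list. The most frequent width was 444 bp, and 40 of the 72 peaks were narrower (55.6%), beside 29.0% for other bound genes. The narrowest, at RpLP1, was 114 bp wide. The 40 narrow peaks had a median rank of 1867.5 and the 32 of the usual width one of 3908.5. Width thus went with rank, and the shares of 55.6% and 29.0% were not matched for rank.

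Both subunits were bound at like shares, and the sign of the difference depended on the list. In the optimal list 41 of 54 large subunit genes (75.9%) and 31 of 39 small subunit genes (79.5%) were bound, a difference of −3.56 percentage points. In replicates 1, 2 and 3, by contrast, 40, 42 and 43 of 54 large subunit genes and 27, 28 and 29 of 39 small subunit genes were bound. The difference was 4.84, 5.98 and 5.27 points (mean 5.37 ± 0.576, SD, n = 3; exact two-sided sign-flip permutation p = 0.25, the smallest that 3 replicates allow). With a window of 1000 bp it was 0.237, and without the symbols ending in -like it was 5.65 ± 2.44 (SD, n = 3). Rank differed more steadily: the median was 2220 for bound large subunit genes and 3181 for bound small subunit genes, and the replicate medians were 2192, 2322 and 2182 against 3073, 3908.5 and 2909 (means 2232 ± 78.1 and 3297 ± 536). These did not overlap. The median offset was −32 for the large and −8 for the small subunit.

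A smaller share of the duplicated genes was bound than of the single ones, and mostly 1 copy of a set; the difference was not tested. By symbol 27 of the genes fall into 13 sets of paralogues, many of which pair a broadly active gene with a copy of restricted activity. Of these 27, 16 were bound (59.3%), beside 56 of the 66 genes outside such sets (84.8%). In the replicates 15, 15 and 15 of the 27 were bound (55.6%) against 52, 55 and 57 of the 66 (82.8% ± 3.81, SD, n = 3). The groups did not overlap. Every member was bound in 4 sets, exactly 1 in 8 sets and none in 1 set.

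In the sets with every member bound, both copies were seldom alike in rank. RpL34b and RpL34a ranked 1164 and 1175. RpLP0 ranked 1270 and RpLP0-like, a ribosome assembly factor by its yeast counterpart, 4137. RpL24 ranked 1414 and RpL24-like, also an assembly factor by its yeast counterpart, 5621. RpS14b and RpS14a, which lie next to each other on X, ranked 2570 and 5054; RpS14a reached the peaks used only in replicate 3 (rank 4066, against 7378 and 7286 in replicates 1 and 2). How the authors placed reads that match near-identical copies is not given in the sources used here, so the values of such pairs are uncertain.

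In the 8 sets with 1 copy bound, the bound one was RpL7, RpS10b, RpL22, RpS19a, RpS28b, RpS5a, RpS15Aa or RpL10Ab. Their partners RpL22-like, known from testis, RpS5b, known from ovary, RpS19b and RpS10a, known from the germ line, and RpL10Aa were all unbound in the optimal list. RpL22 ranked 2213, 1646 and 1668 in the replicates, and RpL22-like had no promoter peak in any list. RpS19a ranked 3560, 2851 and 2371, and RpS19b had a promoter peak only in replicate 1, at rank 27761. RpS5a ranked 4723, 4370 and 2615, and RpS5b had one only in replicate 3, at rank 26020. RpS10b ranked 1581, 1624 and 1243, against ranks of 8483 and 13218 for RpS10a in replicates 2 and 3 and no promoter peak in replicate 1. RpL7-like (replicate ranks 5024, 8329 and 8214), RpS28a (21812, 9047 and 6916) and RpS15Ab (7959 in replicate 1 only) had a lower-ranking peak than RpL7, RpS28b and RpS15Aa, or none, in each replicate. RpS28-like and RpL10Aa had none in any list. RpL10Ab was less well supported than the other bound copies, as it reached the peaks used only in replicate 2. Its optimal summit lay at −338 bp from the TSS, and its highest promoter summits in replicates 1, 2 and 3 at −48, −300 and −57 bp. In the RpL37 set, RpL37-1 ranked 9055, 8003 and 4102 in the replicates and 6326 in the pooled list, just past the end of the optimal list, and RpL37-2 had no promoter peak.

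**Figure D4:**
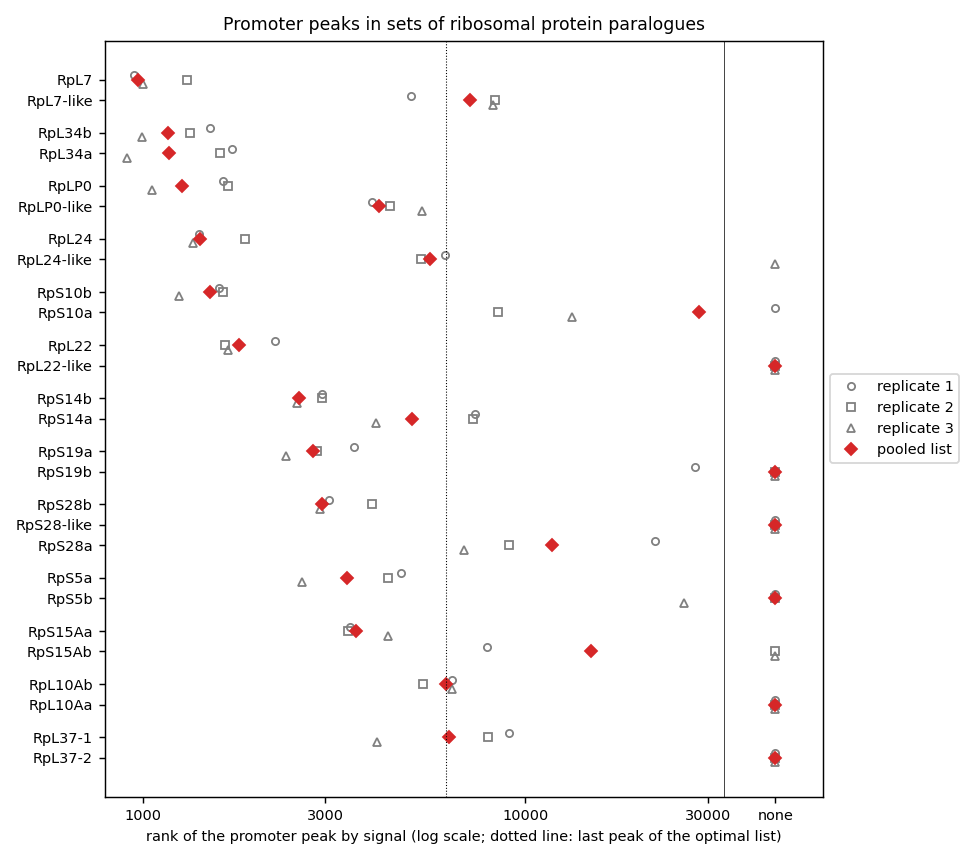
Rank of the promoter peak (log scale, highest to the left) of the 27 genes in 13 sets of paralogues, in the pooled list (red) and in each replicate (grey); genes without a promoter peak in a list stand at "none". The copies differ in most sets, and RpL34a and RpL34b lie close together at 1175 and 1164.

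Of the 21 genes not bound in the optimal list, 9 had a weaker peak. The pooled ranks of their highest promoter peaks were 6326 for RpL37-1, 6880 for RpS13, 7157 for RpL7-like, 7183 for RpL6, 8649 for RpL40, 11773 for RpS28a, 11838 for RpS24, 14885 for RpS15Ab and 28517 for RpS10a. The other 12 had no pooled promoter peak, and 6 of them, RpL10, RpL10Aa, RpL21, RpL22-like, RpL37-2 and RpS28-like, had none in any replicate list. RpL40, which encodes a fusion of ubiquitin with a ribosomal protein, had this pooled peak at −377 bp and a second one 2 bp from its TSS, at rank 9261. Near the second, the replicates had summits 35, 36 and 21 bp from the TSS, at ranks 14300, 10658 and 7150. At least 1 replicate bound 7 of the 21: RpL5, RpL6, RpL7-like, RpL9, RpL15, RpL37-1 and RpS13.

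RpL9 stood apart. It was bound in all 3 replicates, at ranks 3251, 3106 and 2767 with summits 22, 12 and 8 bp downstream of its TSS, but the nearest summit of the pooled list was 6959 bp away. Of 3371 summits of replicate 1 with a partner within 100 bp in both other replicates, 2 had no pooled summit within 500 bp. The optimal list, being the top of the pooled list, therefore holds no peak at RpL9.

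Another 5 unbound genes, RpL10, RpL15, RpL21, RpL38 and RpL5, lay over 100 kb from any optimal summit. That is 5 of 93 ribosomal protein genes, beside 360 of 13945 protein-coding genes. RpL5, RpL15 and RpL38 are known as genes of pericentric heterochromatin. In replicate 3 they had summits 10, 3 and 7 bp from a TSS, at ranks 5955, 5008 and 7420, and in replicates 1 and 2 they had none within 500 bp. The nearest summit to RpL15 in replicates 1 and 2 was over 2 Mb away, at 2532571 and 2037276 bp. Whether reads could be placed uniquely there was not tested.

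The TCT initiator was counted as CTTT on the gene's strand with its C within 5 bases of an annotated TSS. It was found in 48 of the 72 bound genes (66.7%), in 10 of the 21 not bound (47.6%), and in 8.07% of all protein-coding genes. Among ribosomal protein genes, 48 of 58 with TCT (82.8%) and 24 of 35 without (68.6%) were bound, and among other protein-coding genes 297 of 1067 with TCT (27.8%) and 2648 of 12785 without (20.7%). Both TCT and summits were matched at every annotated TSS, and these shares were not matched for the number of TSSs. More than 1 TSS was annotated for 75.1% of the 297 other bound genes with TCT, beside 44.8% of all other bound genes. Summit positions were alike with and without TCT: the median offset was −14 with TCT and −22 without in ribosomal protein genes, and −135 with TCT and −137 without in other bound genes.

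Bound and unbound ribosomal protein genes were also set side by side for gene structure, with no test. A divergent neighbour with its TSS within 1000 bp was annotated for 48 of 72 bound genes (66.7%) and 8 of 21 not bound (38.1%), beside 55.8% of other bound and 30.8% of other unbound genes. More than 1 TSS was annotated for 39 of 72 (54.2%) and 6 of 21 (28.6%), beside 44.8% of other bound and 21.4% of other unbound genes. Genes with more TSSs offer more positions to match. Small nucleolar RNAs, which guide modification of ribosomal RNA, lay inside 27 bound genes (37.5%) and 2 unbound ones (9.52%), beside 0.713% of other bound and 0.312% of other unbound genes. Median gene length was 1391.5 bp for bound and 1071 bp for unbound genes.

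CCAAT, on either strand within 50 bp of the summit, was at a like share of these and of other bound genes in the optimal list, and at a lower share of these in the replicates. In the optimal list it was found at 18 of the 72 summits (25%), beside 24.1% for other bound genes, and in equal windows 500 bp to either side it was in 13.9%, beside 18.5%. The replicates' own summits gave 18.2% ± 2.59 for ribosomal protein genes and 24.4% ± 1.28 for other genes (SD, n = 3), a difference that was not tested. By signal, the 36 stronger ribosomal protein genes held 5 of the 18 and the 36 weaker ones 13. Other bound genes ran the other way, with CCAAT in 28.9% of the stronger 1472 and 19.3% of the weaker 1473. These groups span unlike ranks, as no ribosomal protein gene was among the first 971 peaks. Of the 2482 other genes ranked between the highest and the lowest ribosomal protein gene, 538 had CCAAT (21.7%). Of the 12 strongest ribosomal protein genes, RpL30 alone had CCAAT within 50 bp. The ATTGG of RpS27 printed above lies 62 bp from its summit.

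The 18 genes held 20 such sites. Of these, 14 lay upstream of the TSS and 6 downstream, with a median position of −34 bp and a range from −155 to 64 bp; 9 read CCAAT on the gene's strand and 11 on the opposite one. Within 10 bp of the summit lay 5 sites, at RpL18 (1 bp), RpS28b (3 bp), RpS14a (4 bp), RpS15 (5 bp) and RpLP0-like (9 bp). In the promoter, taken as 250 bases before to 50 after the gene's most upstream TSS, CCAAT was in 45.2% of ribosomal protein genes and in 46.7% of all protein-coding genes.

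Other motifs lay further from the share in all promoters than CCAAT did. All were searched on both strands, and the shares are descriptions. TATCGATA, the DNA replication-related element (DRE) bound by DREF, was in 30.1% of ribosomal protein promoters and 9.36% of all promoters. CGATA, the core read by the insulator protein BEAF-32 and contained in TATCGATA, was in 73.1% and 47.4%. GGTCACACT, the core of Motif 1 bound by M1BP, was in 10.8% and 6.05%. All 10 ribosomal protein genes with it were bound, beside 77.4% of all ribosomal protein genes. Of other genes with it, 263 of 833 were bound (31.6%), beside 21.3% of all other protein-coding genes. GAGAG, read by GAGA factor, was in 17.2% and 29.7%. CACGTG, the E-box, was in 8.60% and 4.2%, and TATAAA in 48.4% and 45.8%. TATAAA was counted anywhere in the 300 bases of the promoter, so its share is not the share of promoters with a TATA box. CATCNCTA (Motif 7) was in 9.68% and 6.42%. At the summits of bound genes, TATCGATA was in 11.1% of ribosomal protein genes and 3.40% of others, CGATA in 34.7% and 19.0%, GAGAG in 5.56% and 14.5%, and TATAAA in 6.94% and 22.8%. GGTCACACT was in 6.94% and 1.66%, CACGTG in 4.17% and 1.09%, and CATCNCTA in 2.78% and 2.38%. Median summit offsets were −17.5 bp in ribosomal protein genes and −137 bp in others, so the summit counts cover unlike parts of the promoter. Base composition, which bears on such counts, was close: median promoter GC was 37.3% in bound and 35.7% in unbound ribosomal protein genes and 38% in all protein-coding genes.

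**Figure D5:**
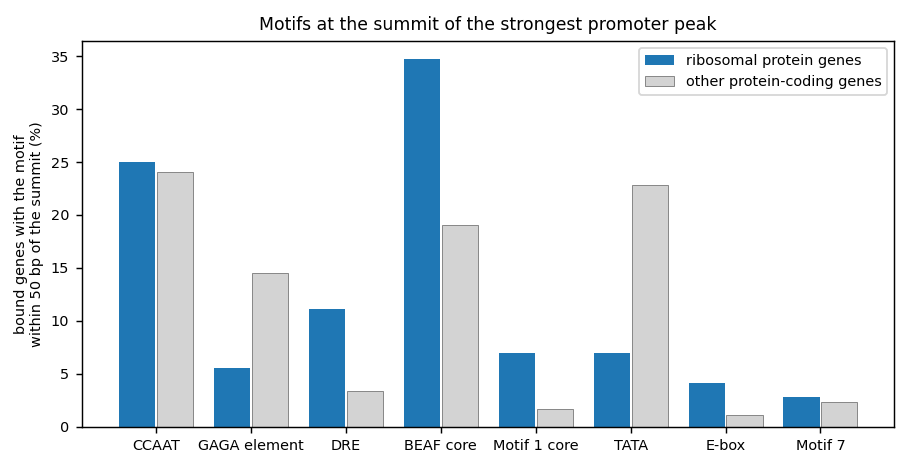
Share of bound genes (percent) with a motif on either strand within 50 bp of the summit, for ribosomal protein genes and other protein-coding genes in the optimal list. CCAAT is level at 25% and 24.1%. DRE, its core CGATA, the Motif 1 core and the E-box stand higher in ribosomal protein genes, and GAGAG and TATAAA lower. The summits lie at unlike distances from the TSS, with medians of −17.5 and −137 bp, so the windows cover unlike parts of the promoter.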

How the data were processed

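ChIP-seq peak lists of 3 replicates of 1 group, a pooled list and an optimal list were used. Per the file headers of the samples' readme texts, the authors called each replicate's peaks against 1 control alignment, called the pooled list on all 3 alignments, and filtered the optimal list by the irreproducible discovery rate. Coordinates are dm6, per the labels. No aligner, peak caller or threshold is named (not given in the sources used here), and the control alignment was not used here. The deposited columns used were signal, the −log10 q-value and another column, the summit position within the interval. Depth is unknown, so no counting interval was computed. The optimal list was found to be the 6221 pooled peaks of highest signal, and 6 summits over all lists lie outside their interval and were kept.

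Genes and TSSs came from Ensembl release 115 without transposable elements. Sequence came from the RefSeq copy of the assembly, in which 99.9% of annotated start codons read ATG. Scripts ran in Python 3.11.15 with pandas 2.3.3 and numpy 2.4.6, and were tested on simulated data. Where a gene had several promoter peaks, the one of highest signal was taken. Of the genes written in the biogenesis and regulator lists, 1 of 34 and 1 of 14 matched no gene. The members, lists, motifs and alternatives were chosen with earlier results of these data known. Named were the 12 strongest and 5 weakest bound genes, all unbound genes, all paralogues, genes whose calls differ between optimal list and replicates, neighbours at their summits and the 2 strongest of each other list. Values of 2 bound genes that fall under this rule or the plot of ranks are not reported here one by one. Genes and peaks are not replicates, so tests were run only over the 3 replicates.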

Additional observations from a re-analysis of the deposited data

How the results depend on the processing

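Of 93 genes, 72 were bound in the optimal list. With 250 bp, 1000 bp, interval overlap, the nearest TSS of any gene, the 5' end of the gene's extent or each interval counted once, the count ran from 65 to 74. With only the stronger 50% of the list it was 46, and when each replicate list was shortened by 50% the mean per replicate was 42.7. It was 52 when the summit had to be among the 6221 peaks of all 3 replicates, and 54 to 61 when it had to be in both others with 1 replicate left out, so these last values compare with 52 and not with 72. The replicate mean was 68.5 to 71 without 1 replicate. Under all 11 alternatives 37 genes were bound; RpS19b and RpS28a were gained at 1000 bp. The large minus small difference, 5.37 points over replicates, was −3.56 in the optimal list, an alternative chosen after seeing the data, and 5.06 to 5.63 without 1 replicate; the cause was not tested. The median rank was 2658.5 by signal and by q-value. The median offset was −5.5 from the 5' end of the gene's extent, and the replicate mean ran from −20.5 to −13.75 without 1 replicate. CCAAT was at 12.5% of summits within 25 bp and 37.5% within 100 bp, as wider windows hold more sequence; the replicate mean was 16.9% to 19.5% without 1 replicate. Sets with every paralogue bound numbered 4, and 2 when the summit had to be found in all 3 replicates; required in the other 2 alone, it gave 2 without replicate 1, 2 without replicate 2 and 3 without replicate 3, to be set against that 2.

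Limits are the unknown depth, 3 replicates of 1 group, and promoters shared with other genes.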
